A study of Caenorhabditis elegans with 2 samples.

Results

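The regions described here are 228 candidate binding regions of the transcription factor DMD-4 that lay at genes for small nucleolar RNAs (snoRNAs) in late embryos of Caenorhabditis elegans. They were chosen by position alone: the summit of the region, its point of highest signal, lay within 500 bp of a snoRNA gene and not within 500 bp of a tRNA gene. They were taken from 30000 candidates listed for both replicates together, of which 29988 were on the 6 nuclear chromosomes. That list holds background as well as peaks, so a candidate need not be a binding site. Of the 228, 50 regions were in the shorter list that the authors kept as reproducible between replicates, and these are called kept regions.

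Chromatin immunoprecipitation and sequencing (ChIP-seq) had been done on whole hermaphrodite late embryos, 5 h after synchronization by egg bleaching, in 1 group of 2 biological replicates with no other condition. Strain OP418 has the genotype unc-119(tm4063) III; wgIs418, where wgIs418 is the inserted transgene that makes DMD-4 with a GFP and FLAG tag at its C-terminal end, and both replicates came from this 1 line. Sonicated chromatin was precipitated with an antibody against GFP from whole embryos, so the signal is not resolved by cell type. Neither sample lacked the tag, so how far the signal of a region depends on the tagged protein was not tested. Every value below is the authors' own signal for a region, in arbitrary units relative to a control and comparable within 1 list only, and without read counts in the files the sequencing depth is unknown.

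DMD-4 belongs to the DM-domain family, whose best known members, doublesex in the fly and MAB-3 in the worm, act in sexual development. The snoRNAs are short nucleolar RNAs that guide chemical changes of ribosomal and spliceosomal RNA: C/D snoRNAs guide ribose methylation and H/ACA snoRNAs guide the change of uridine to pseudouridine. Many are cut out of introns of protein-coding genes on the same strand, and others are transcribed on their own. A tRNA gene, by contrast, is transcribed by RNA polymerase III from a promoter inside the gene made of an A box and a B box, which the factor TFIIIC binds, and polymerase III stops at a run of T.

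The sequence next to some of the strongest kept regions is shown first, because tRNA-type boxes recur in it. The letters come from the RefSeq sequence of WBcel235, which is ce11, and are written on the strand of the snoRNA gene from 110 bases before its first base to 9 bases after that base. Capitals mark a match to the A box consensus and, after it, a match to the B box letters GTTCNANNC, searched on the strand of the gene. Where several matches occurred, only the last is marked. In Y43F8C.22 an earlier A box match, TGGCTTAGTGG, overlaps the start of the marked one. A match is a match of letters and no more. The search was chosen after the sequences had been seen, so its results are descriptions without a test. The lines show W03C9.9 at chrII:11960788-11960907 (plus strand), T03F7.8 at chrV:11314148-11314267 (plus strand), C04G6.12 at chrII:5105222-5105341 (minus strand) and Y43F8C.22 at chrV:19643178-19643297 (minus strand), which hold both boxes.
W03C9.9: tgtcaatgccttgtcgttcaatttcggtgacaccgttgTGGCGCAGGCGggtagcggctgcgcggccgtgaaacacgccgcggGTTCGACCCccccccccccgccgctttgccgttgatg
T03F7.8: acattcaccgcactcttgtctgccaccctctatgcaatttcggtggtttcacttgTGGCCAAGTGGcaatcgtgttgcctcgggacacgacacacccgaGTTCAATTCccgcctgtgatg
C04G6.12: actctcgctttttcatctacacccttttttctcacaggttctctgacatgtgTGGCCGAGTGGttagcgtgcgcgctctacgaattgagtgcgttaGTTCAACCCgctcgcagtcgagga
Y43F8C.22: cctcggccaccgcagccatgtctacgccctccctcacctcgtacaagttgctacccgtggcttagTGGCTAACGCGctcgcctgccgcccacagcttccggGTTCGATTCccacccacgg

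The strongest region of all 228 lay over C51F7.4. Its stretch, at chrV:12303584-12303718 (plus strand), runs from 15 bases before that gene through its end, since the boxes lie inside the annotated gene, ahead of the next snoRNA gene, C51F7.3. An earlier match to the B box letters, GTTCAAACC, lies between the marked boxes and is left in lower case.
C51F7.4: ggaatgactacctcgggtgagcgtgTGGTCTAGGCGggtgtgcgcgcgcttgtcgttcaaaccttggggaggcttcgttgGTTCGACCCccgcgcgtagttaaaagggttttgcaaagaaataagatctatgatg
Strong kept regions also occurred without the pair of boxes, and not all of these are printed. The printed lines therefore do not give the share of strong regions that hold the pair. T06C12.16, at chrV:15873917-15874036 (minus strand), had an A box match alone. ZK994.7, at chrV:8500469-8500588 (plus strand), and D1046.6, at chrIV:8927155-8927274 (plus strand), had neither.
T06C12.16: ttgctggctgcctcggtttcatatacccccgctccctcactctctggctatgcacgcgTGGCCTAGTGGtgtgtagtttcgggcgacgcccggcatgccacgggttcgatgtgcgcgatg
ZK994.7: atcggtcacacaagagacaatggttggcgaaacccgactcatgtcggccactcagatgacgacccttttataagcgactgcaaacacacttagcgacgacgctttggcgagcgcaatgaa
D1046.6: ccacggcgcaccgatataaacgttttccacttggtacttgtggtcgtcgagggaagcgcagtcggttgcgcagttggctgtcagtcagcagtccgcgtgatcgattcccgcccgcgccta
For comparison, ZK546.18 at chrII:4942510-4942629 (minus strand) and F12F6.11 at chrIV:11549855-11549974 (minus strand) carried both boxes next to regions that fell just below the end of the reproducible list.
ZK546.18: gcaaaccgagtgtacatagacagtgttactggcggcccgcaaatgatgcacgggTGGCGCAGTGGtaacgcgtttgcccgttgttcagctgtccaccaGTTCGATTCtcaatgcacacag
F12F6.11: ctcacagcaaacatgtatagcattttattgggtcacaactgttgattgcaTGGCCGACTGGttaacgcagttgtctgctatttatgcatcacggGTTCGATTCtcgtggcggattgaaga

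Candidates at snoRNA genes were kept more often than candidates away from snoRNA and tRNA genes, and about as often as candidates at tRNA genes. The share kept was 21.9% (50 of 228, exact 95% interval 16.7 to 27.9%), where 2.14% of all nuclear candidates were kept. It was 24.5% (108 of 440, 20.6 to 28.8%) for candidates within 500 bp of a tRNA gene and 1.65% (485 of 29320, 1.51 to 1.81%) for candidates near neither kind of gene. At a deposited q of at most 0.05 it was 20.2% (46 of 228) against 1.66% of all nuclear candidates. Such intervals cover counting error over regions, which are not independent biological replicates and share the same 2 libraries. The median signal was 55.3 over all 228 regions and 41.1 over all nuclear candidates.

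Kept regions at snoRNA genes stood high within the reproducible list. Their signals ran from 109.0 to 659.4 with a median of 219, and the median of all 643 nuclear regions of the list was 138. They made up 22 of the 100 regions at pooled ranks 1 to 100 (22.0%, 14.3 to 31.4%), 17 of the 200 at ranks 101 to 300 (8.50%, 5.03 to 13.3%) and 11 of the 352 at ranks 301 to 652 (3.13%, 1.57 to 5.52%).

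Both replicates ranked these regions high. Each kept region was matched to the strongest candidate that overlapped it in the list of each replicate. Replicate 1 gave signals of 36.5 to 308 with a median of 105, and replicate 2 gave 56.8 to 361 with a median of 113, on separate scales. All 50 kept regions were candidates in both replicates. Among the strongest 652 regions of a replicate, as many as the reproducible list holds, were 45 of the 50 in replicate 1, where 2.15% of all nuclear candidates had such a rank. In replicate 2 it was 48 of 50, against 2.14%, and 43 were in the top of both and 0 in the top of neither. The reproducible list was itself made from these replicates, so this describes it and does not test it.

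Of the 178 regions not kept, 162 were in the top of neither replicate and 7 in the top of both. All of those 7 overlapped a region of the reproducible list, so that their replicate values were those of a stronger neighbour.

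**Figure D1:**
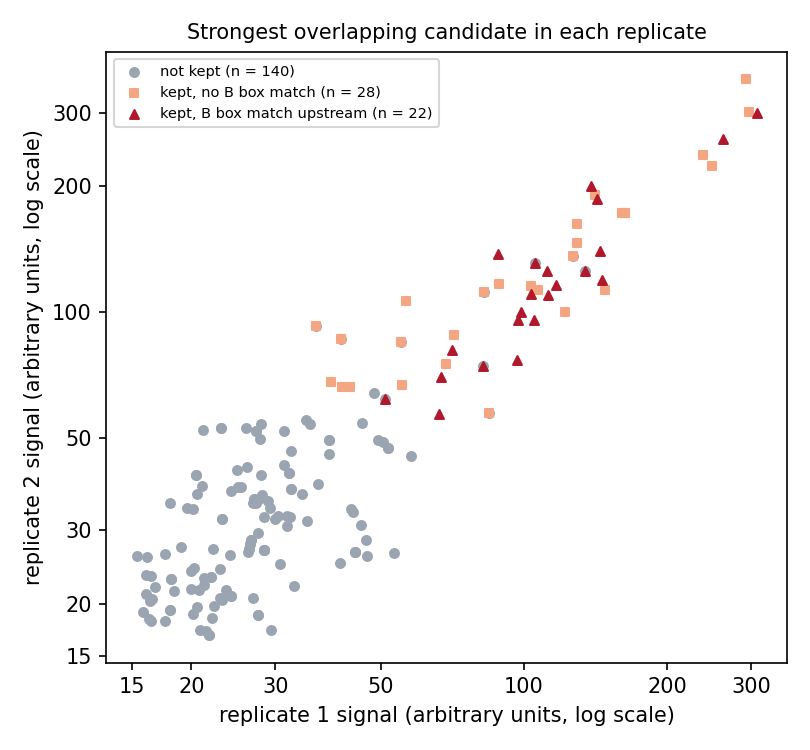
Deposited signal of the strongest overlapping candidate in replicate 1 (horizontal) and replicate 2 (vertical), arbitrary units on log scales, for the 190 regions at snoRNA genes with a candidate in both replicates; each point is 1 pooled region. The 50 kept regions span 36.5 to 308 horizontally and 56.8 to 361 vertically, above nearly all of the 140 others, and the kept regions with and without a B box match ahead of the nearest gene overlap.

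The 7 kept regions outside the top 652 of a replicate had pooled signals of 109 to 147. Outside it in replicate 1 were W01H2.11 (rank 1292 in replicate 1 and 256 in replicate 2), C01B10.48 (2082 and 216), Y53F4B.47 (1559 and 464), Y49E10.36 (1105 and 506) and F20D12.10 (1268 and 504). Outside it in replicate 2 were W01C9.6 (rank 174 in replicate 1 and 735 in replicate 2) and T08B2.13 (305 and 745). Replicate 1 thus ranked 5 of these 7 much lower than replicate 2 did.

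The snoRNA genes were divided by their place. Of the 228 regions, 95 had their nearest snoRNA gene inside an intron of a protein-coding gene on the same strand, 20 inside an intron on the opposite strand, 86 between protein-coding genes and 27 over an exon or the edge of a protein-coding gene. Kept regions occurred in every class. The share kept was 17.9% (17 of 95, 10.8 to 27.1%) for same-strand introns, 35.0% (7 of 20, 15.4 to 59.2%) for opposite-strand introns, 24.4% (21 of 86, 15.8 to 34.9%) between genes and 18.5% (5 of 27, 6.30 to 38.1%) for the rest.

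None of the 3 pairs of the first 3 classes differed in the share kept beyond counting error. Two-sided Fisher's exact tests, adjusted over the 3 pairs by Benjamini-Hochberg, gave an odds ratio of 0.676 (0.307 to 1.47, adjusted p = 0.400) for same-strand introns against between genes. For opposite-strand introns against between genes it was 1.66 (0.492 to 5.21, adjusted exact p = 0.400), and for same-strand against opposite-strand introns 0.409 (0.127 to 1.40, adjusted exact p = 0.380). Each interval spans 1, so either class of a pair could have the higher share at this number of regions.

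The median signal was 54.3 in same-strand introns, 65.9 in opposite-strand introns, 61.4 between genes and 48.2 for the rest. Over kept regions alone it was 204, 263, 220 and 201 in the same order. The ranges of the classes overlapped almost wholly: signals ran to 594 in same-strand introns, 519 in opposite-strand introns, 601 between genes and 659 for the rest. These upper ends rest on the strongest region of each class. The next highest signals were 341, 337, 477 and 233 in the same order.

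**Figure D2:**
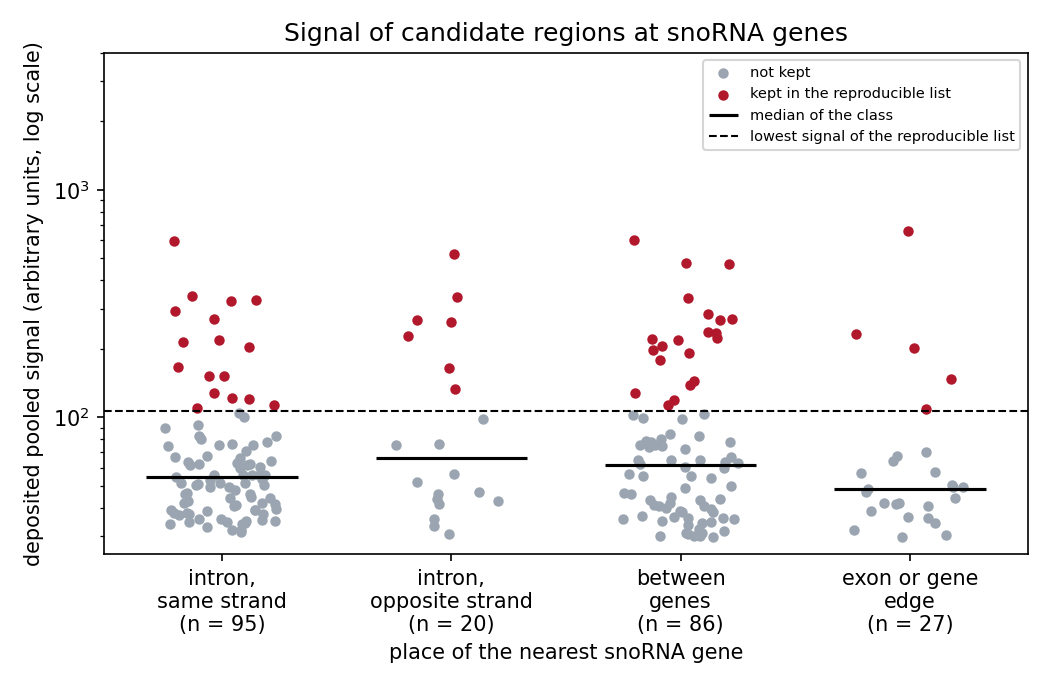
Deposited pooled signal (arbitrary units, log scale) of the 228 candidate regions, by the place of the nearest snoRNA gene; each point is 1 region, the short lines are class medians and the dashed line is the lowest signal of the reproducible list, 106.4. Each of the 4 classes reaches above 500 through its strongest region, and the class medians, 48.2 to 65.9, lie below the dashed line.

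Among snoRNA genes inside introns on the same strand, the strongest region was at ZK994.7, in a 341 bp intron of pxn-1, which encodes a peroxidasin of the extracellular matrix. Its pooled signal was 594 (297 in replicate 1 and 302 in replicate 2), with the summit 4 bp upstream of the snoRNA gene. Next came D1046.6, in cfim-2, whose product is a subunit of an mRNA 3-prime end cleavage factor, with a signal of 341 (163 and 173) and a summit 53 bp upstream. A second kept region at D1046.6, with a signal of 121 and its summit 146 bp after the start, overlapped the same candidates in both replicates. Its replicate values are therefore those of its stronger neighbour. The shares of regions count both separately, except with 1 region for each gene.

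Y43F8C.22, in a 1466 bp intron of Y43F8C.7, had a signal of 326 (142 and 187) with the summit 19 bp upstream. C27H6.5, in unc-41, which encodes a stonin-like protein of synaptic vesicle recycling, had 326 (141 and 190) with the summit 21 bp upstream. In all 4 of these genes both replicates placed the region at rank 45 or better. The other named regions of this class were at C10C6.8 in catp-8 (signal 292), F38E11.14 in cng-3 (271), F55A11.10 in F55A11.6 (218) and C05D2.15 in madf-11 (214), with summits 50 to 67 bp upstream.

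The 16 snoRNA genes nearest to the 17 kept regions of this class lay in introns of 201 to 1466 bp (median 338), and all 150 genes of the class in introns of 82 to 20393 bp (median 374). Ribosomal protein genes are common hosts of snoRNAs. Of 19 intronic snoRNA genes in them, 13 had a candidate region and 1 had a kept one (5.26%, 0.133 to 26.0%), F54E7.10 in rps-12, with its summit 252 bp upstream. This interval holds the share of all same-strand intronic snoRNA genes, 11.3% (17 of 150). None of the 19 had a B box match.

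Where the host gene runs on the opposite strand, the strongest region was at T03F7.8 in cutl-18, a gene named for a cuticlin-like protein, with a signal of 519 (262 and 260) and the summit 45 bp upstream. C04G6.12 in mpk-2, a MAP kinase gene, had 337 (138 and 200) with the summit 20 bp upstream. ZK484.9 in haf-9, an ABC transporter gene, had 228 (88.3 and 137) with the summit 39 bp upstream. All 3 carried both boxes on the snoRNA strand.

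The other 4 kept regions of this class had summits at or after the snoRNA start, or just before it. B0334.12 in twk-5, a potassium channel gene, had 267 (148 and 113) with the summit 127 bp after the start, beyond the end of the gene. C27H5.9 in pdl-1 had 263 (127 and 136) with the summit 25 bp inside the gene. The summit at F07A11.15 in din-1 (133) was 92 bp inside, and that at T04A8.17 in ppat-1 (164) was 6 bp upstream. At B0334.12 and F07A11.15 the B box letters lay within 100 bp of the summit on the strand opposite to the snoRNA gene.

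Between protein-coding genes, the strongest region was at W03C9.9, with a signal of 601 (308 and 299) and the summit 61 bp upstream. T06C12.16 had 477 (248 and 224) with the summit 43 bp upstream, and ZK265.10 had 471 (238 and 238) with the summit 82 bp upstream. F59C6.15 had 334 (161 and 173), with its summit 111 bp upstream. The next were F32E10.10 (284), T19B4.8 (270), F30H5.4 (268) and C41C4.11 (236), with summits 33 to 80 bp upstream. In this class every one of the 21 kept summits was upstream of its snoRNA gene, from 20 to 345 bp before the start. The sequences at ZK265.10, with an A box match alone, and at F59C6.15, with neither box, are not among those printed. Both regions had a higher signal than the printed Y43F8C.22 (326), so the printed set was not chosen by signal alone.

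Of the 5 kept regions at snoRNA genes over an exon or gene edge, C51F7.4, which overlaps the edge or an exon of frm-7, was the strongest of all, with 659 (293 and 361) and pooled rank 4. Its summit was 37 bp inside the annotated gene, and 72 bp before the start of C51F7.3, whose last B box match began 44 bp before that start. T02E1.9 in spe-12 had a signal of 233, T27A3.9 in T27A3.8 had 201, W01C9.6 in glb-27 had 147 and F20D12.10 in F20D12.12 had 109. The first 3 of these had summits 11 to 43 bp upstream, and F20D12.10 had its summit 374 bp upstream.

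Over all 228 regions the summit was more often upstream of the snoRNA gene when the gene lay between protein-coding genes. The 228 include the 178 regions not kept, which may be background. The upstream share was 73.3% (63 of 86) between genes, 49.5% (47 of 95) for same-strand introns and 40.0% (8 of 20) for opposite-strand introns. Against the class between genes, Fisher's exact test gave odds ratios of 0.360 for same-strand introns (interval 0.182 to 0.697, adjusted p = 0.00401) and 0.247 for opposite-strand introns (interval 0.0768 to 0.753, adjusted p = 0.0112). The 2 intron classes did not differ past the threshold (odds ratio 1.46, 0.498 to 4.53, adjusted Fisher's exact p = 0.471).

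These calls depended on how the regions were taken. With the candidates of replicate 1 alone the upstream shares were 50 of 100 in same-strand introns, 9 of 22 in opposite-strand introns and 49 of 81 between genes, and with replicate 2 alone they were 63 of 107, 9 of 17 and 64 of 90. Neither comparison with the class between genes then passed the threshold (adjusted Fisher's exact p = 0.267 in replicate 1 and 0.242 in replicate 2, for both intron classes). In the pooled list within 1000 bp of the gene, both calls were also lost (adjusted Fisher's exact p = 0.101 for same-strand and 0.329 for opposite-strand introns). With 1 region for each gene the adjusted exact p was 0.0456 and 0.0557, and without summits from 1000 bp before to 200 bp after a protein-coding transcript start it was 0.00459 and 0.306, in the same order. The direction was the same in each of these comparisons with the class between genes.

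Most kept summits lay close before the gene start, least clearly in opposite-strand introns, where 3 of 7 lay inside the gene or beyond it. Of the 50, 34 were 1 to 100 bp upstream (68.0%, 53.3 to 80.5%), against 34 of the 178 not kept (19.1%, 13.6 to 25.7%). Upstream of the gene were 13 of 17 kept summits in same-strand introns, 4 of 7 in opposite-strand introns and 21 of 21 between genes. The median kept position was 21 bp upstream, 6 bp upstream and 59 bp upstream in these classes. Among regions not kept, the median was 48.5 bp after the start in same-strand introns, 194 bp after it in opposite-strand introns and 50 bp upstream between genes.

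**Figure D3:**
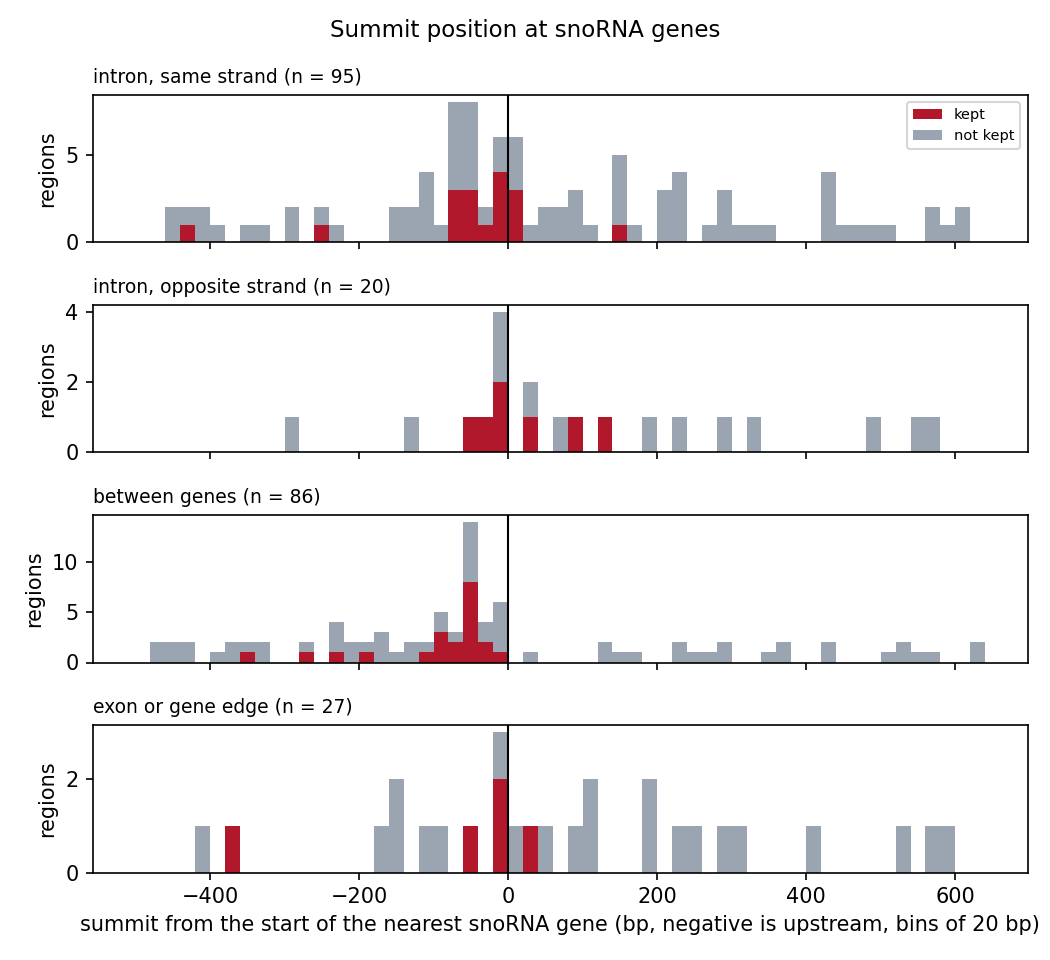
Number of candidate regions by the distance of the summit from the start of the nearest snoRNA gene (bp, negative is upstream, bins of 20 bp), 1 panel for each place of the gene, kept regions in red on top of which the others are stacked in grey. Kept summits cluster within 100 bp before the start (34 of 50), while the grey regions spread over the whole window.

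A summit is only as precise as its region. The commonest width was 450 bp, which all 178 regions not kept had, and 18 of the 50 kept regions were narrower.

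Boxes of the tRNA type were common ahead of the snoRNA genes with a kept region. Of the 346 nuclear snoRNA genes, 51 had a kept region within 500 bp. The B box letters GTTCNANNC, looked for from 120 bases before to 10 after the gene start, were found at 23 of the 51 (45.1%, 31.1 to 59.7%) and at 15 of the 295 others (5.08%, 2.87 to 8.25%). An A box match occurred at 29 of the 51 (56.9%, 42.2 to 70.7%) and at 39 of the 295 (13.2%, 9.57 to 17.6%). Both boxes, with the A box starting 25 to 75 bases before the B box, were found at 20 of the 51 and 8 of the 295.

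Read from the boxes, 23 of 38 snoRNA genes with a B box match had a kept region (60.5%, 43.4 to 76.0%), and 20 of 28 with both boxes had one (71.4%, 51.3 to 86.8%). On the opposite strand the same B box letters were found at 0 of the 51 genes and at 5 of the 295 in the same window. The looser letters GTTCNNNNC were found at 29 of the 51 and 39 of the 295.

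The boxes stood at a narrow range of distances from the gene. In the 23 genes with a kept region, the B box match began 5 to 44 bases before the gene start, with a median of 14. In the 20 with both boxes, the A box match began 36 to 55 bases before the B box match, with a median of 44 and quartiles of 43 and 45. Where a gene had several matches, as Y43F8C.22 and C51F7.3 did, the last was used, so its spacing rests on that choice. The 8 genes with both boxes but no kept region had the same median spacing, 44 bases. The position of the boxes in W03C9.9, T03F7.8, C04G6.12 and Y43F8C.22 can be read from the sequences printed above.

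The boxes were not limited to 1 class of gene. Among genes with a kept region, B box matches were found at 9 of 17 in same-strand introns, 3 of 8 in opposite-strand introns, 9 of 21 between genes and 2 of 5 of the rest. Among genes without one they were found at 7 of 133, 3 of 20, 4 of 103 and 1 of 39.

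At kept regions with a B box match the summit lay next to it, and so next to the gene start. The median summit position from the gene start (negative is upstream) was -44 bp at the 22 kept regions with a match. It was -53 bp at the 28 without one, so nearness to the box was not separated from nearness to the gene. In the 22 kept regions whose nearest snoRNA gene had one, the summit was 68 bp before to 36 bp after the first base of the B box, with a median of 32 bp before it, and 21 of 22 were within 50 bp. The exception was T19B4.8, with its kept summit 68 bp before the B box. In the 12 regions not kept whose nearest gene had a match, summits were spread from 236 bp before to 318 bp after it, with quartiles of 51 bp before and 175 bp after. These 12 include second regions beside a kept one, at T19B4.8, T02E1.9 and F11A10.9 among others, so they are not all genes without a kept region. At kept regions near tRNA genes, where 104 of 108 nearest tRNA genes held the same letters, the summit had a median of 37.5 bp before the B box, with quartiles of 58 bp before and 14.3 bp after it. The corresponding quartiles at snoRNA genes were 42 and 6.75 bp before it.

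The same letters were counted around every summit, within 100 bp on either strand, so that the share can be read against a background. They were found at 7.90% of the 29988 nuclear candidates, at 25 of 50 kept regions at snoRNA genes (50%, 35.5 to 64.5%) and at 16 of 178 not kept (8.99%, 5.23 to 14.2%). Kept regions near tRNA genes had them at 93 of 108 (86.1%, 78.1 to 92.0%), and kept regions near neither kind of gene at 21 of 485 (4.33%, 2.70 to 6.54%).

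**Figure D4:**
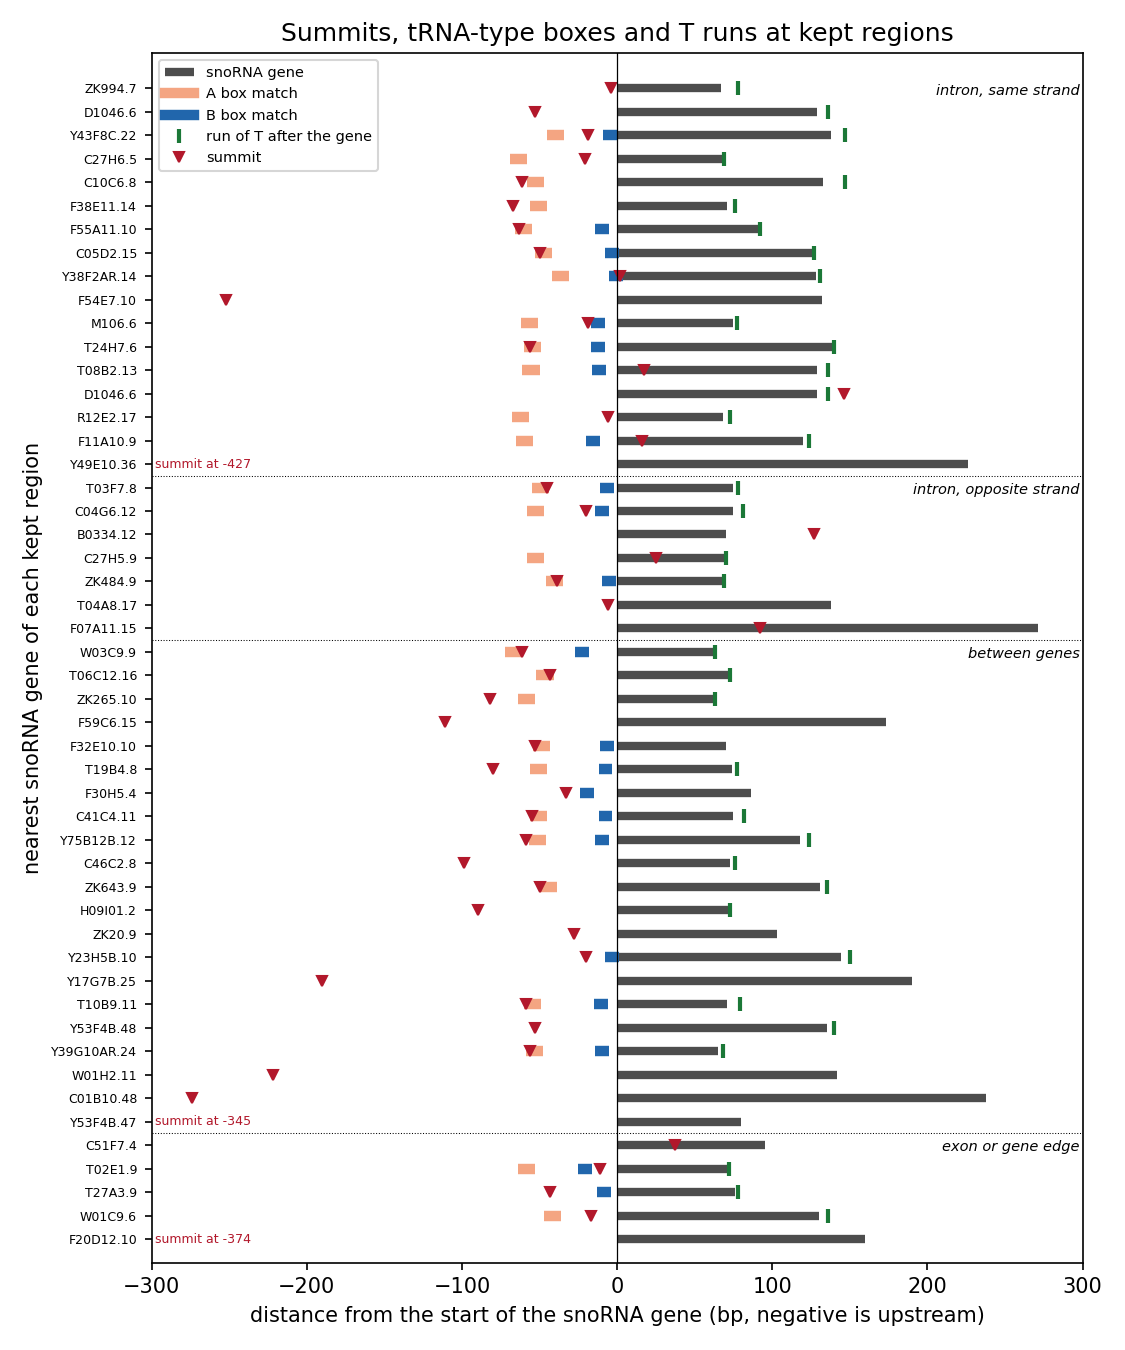
Each line is 1 kept region, aligned at the start of its nearest snoRNA gene (0 bp, grey bar from start to end), with the A box match (orange), the B box match (blue), a run of T after the gene (green tick) and the summit (red triangle), grouped by the place of the gene and ordered by signal within it; a summit beyond 300 bp is given as its distance at the left edge. In 22 of the 50 lines a B box match stands just before the gene, and the summit lies within 50 bp of its first base in 21 of these.

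The signals of kept regions with and without a B box match overlapped. The 22 with a match ahead of the nearest snoRNA gene had signals of 113 to 601 (median 223), and the other 28 had 109 to 659 (median 212). Those 28 include C51F7.4, the strongest, whose boxes lie ahead of the next gene, C51F7.3, and B0334.12 and F07A11.15, with the letters on the opposite strand. Counted within 100 bp of the summit on either strand instead, the 25 regions with the letters had signals of 113 to 659 (median 228) and the 25 without had 109 to 594 (median 205). Of the 22 regions at pooled ranks 1 to 100, 11 had a B box match ahead of the nearest gene, and the share was 8 of 17 at ranks 101 to 300 and 3 of 11 at ranks 301 to 652. In the top of both replicates were 21 of the 22 kept regions with a B box match. The exception was T08B2.13 in fars-1, a gene for a phenylalanyl-tRNA synthetase, which was outside the top of replicate 2.

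A run of 4 T within 20 bp after the gene end was found at 35 of 51 genes with a kept region (68.6%, 54.1 to 80.9%) and at 110 of 295 without (37.3%, 31.8 to 43.1%). In same-strand introns it was 15 of 17 (88.2%, 63.6 to 98.5%) against 51 of 133 (38.3%, 30.1 to 47.2%). In opposite-strand introns it was 4 of 8 against 12 of 20, so the order was not the same in that small class. The run started a median of 3 bases after the gene end at genes with a kept region and 7 bases after it at the others.

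The T run and the B box went together: 33 of 38 genes with a B box match had the run (86.8%, 71.9 to 95.6%), and 112 of 308 without one (36.4%, 31.0 to 42.0%). A kept region was found at 21 of 33 genes with both (63.6%, 45.1 to 79.6%), 14 of 112 with the T run alone (12.5%, 7.01 to 20.1%), 2 of 5 with the B box alone and 14 of 196 with neither (7.14%, 3.96 to 11.7%). Genes with a kept region were also shorter, with a median of 86 bp against 132 bp. What of the signal goes with the boxes and what with other properties of these short genes was not tested.

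A smaller set of kept regions looked unlike the rest. In 8 of the 50, a group picked out after the values were seen, the summit was more than 100 bp upstream of the snoRNA gene. None of these 8 genes had an A box match, a B box match or a T run. In the other 42 kept regions, 28 had an A box match, 22 a B box match and 35 a T run. The cut covers the upstream side only. Among the other 42, B0334.12, with its summit 127 bp after the start, also had none of these at the gene. The second region at D1046.6, 146 bp after the start, had a T run and no box match. The 8 were F59C6.15, Y17G7B.25, F54E7.10, W01H2.11, C01B10.48, Y53F4B.47, Y49E10.36 and F20D12.10.

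In 7 of these 8 the summit lay in the promoter window of a protein-coding gene, from 1000 bp upstream to 200 bp downstream of a transcript start, against 12 of the other 42. Y49E10.36, in an intron of the histone H3.3 gene his-72, had its summit 427 bp before the snoRNA gene and 79 bp after the his-72 start. C01B10.48 had its summit 289 bp before the start of hil-7, a gene for a histone H1-like protein, and Y53F4B.47 had its summit 42 bp after the start of cmtr-1, named for an mRNA cap methyltransferase. In the top of both replicates were 3 of the 8 and 40 of the other 42. At such places the region cannot be told apart from one at the protein-coding gene.

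Over all regions the promoter window made no such distinction. It held 19 of the 50 kept summits (38.0%, 24.7 to 52.8%) and 68 of the 178 not kept (38.2%, 31.0 to 45.8%). In same-strand introns the shares were 7 of 17 and 35 of 78, in opposite-strand introns 1 of 7 and 4 of 13, and between genes 9 of 21 and 24 of 65.

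The end of the reproducible list passed between regions of nearly the same signal. Just inside were F11A10.9 in rbm-34 (signal 113), Y49E10.36 in his-72 (110) and F20D12.10 (109). Just outside were ZK546.18 in mdt-4 (104), F12F6.11 (104) and C53B7.8 (102), which all had a B box match and a summit 11 to 59 bp upstream of the gene. Of the 15 snoRNA genes with a B box match and no kept region, 7 had a candidate region, with best signals of 41.6 to 104 (median 98.4), and 8 had no candidate within 500 bp.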

How the data were processed

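DMD-4 ChIP-seq of 2 biological replicates was analysed from narrowPeak region lists in ce11. The authors deposited a signal value for each region and a −log10 q; per the labels, fragmentation was by sonication. Control libraries entered the calling per the deposited file listing. Not given in the sources used here are the aligner, the peak caller, the threshold of the reproducible list and read counts. The ce10 lists were used only for the number of regions in the reproducible list, 1138 against 652 in ce11.

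Summits were placed against genes of Ensembl release 115 for WBcel235. The last candidate ended within the reference length on all 6 nuclear chromosomes. An intron class needed the snoRNA gene inside an intron of a protein-coding gene. A region counted as kept when the same region was in the reproducible list. Classes were compared by two-sided Fisher's exact tests, adjusted by Benjamini-Hochberg over 3 pairs. Intervals are exact (Clopper-Pearson) at 95%. Up to 8 kept regions of each class, those beside the list end and those outside the top of a replicate were named, by signal. Python 3.11.15, scipy 1.17.1, pandas 2.3.3, numpy 2.4.6, statsmodels 0.14.6 and matplotlib 3.10.9 were used, and the procedures were tested on simulated data.

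Alternatives were another distance (200 or 1000 bp), regions near tRNA genes included, 1 region for each gene, stricter classes, no coding promoter windows, other ends of the list and each replicate alone. The regions, classes and lists were chosen with earlier results of these data known.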

Additional observations from a re-analysis of the deposited data

How the results depend on the processing

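The share kept did not differ past the threshold between classes under any alternative tried. The upstream share was less stable. Same-strand introns minus between genes, -23.8 percentage points, was -12.5 within 1000 bp, and opposite-strand introns minus between genes, -33.3 points, was -12.9 there, -28.3 with 1 region for each gene and -20.3 without coding promoter windows, each no longer past the threshold. With a single replicate they were -12.2 to -10.5 and -19.6 to -18.2 points. The difference between the intron classes, 9.47 points and not past the threshold, reversed to -11.8 without coding promoter windows. The causes were not tested.

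Median class signal relative to all nuclear candidates was 1.32 in same-strand introns, 1.60 in opposite-strand introns and 1.49 between genes. It was 1.47, 2.39 and 1.80 within 200 bp, 1.16, 1.19 and 1.32 within 1000 bp, 1.41, 1.85 and 1.62 with 1 region for each gene, and 1.85 in opposite-strand introns without coding promoter windows. In single replicates it was 1.16 to 1.25, 1.36 to 1.66 and 1.27 to 1.39. The B box difference, 40.0 points, was 47.3 with kept regions within 200 bp and 40.9 to 46.9 with single replicates, alternatives added after seeing the data. In all, 62 of the values kept their direction and side of the threshold or moved little, 17 moved further, 8 were weaker and 1 reversed.

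Depth is unknown, 2 replicates of 1 line give no error for a class, and most summits sit in regions of 450 bp, which limits their position.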

Other observations

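Short words ahead of the genes were also counted, and the first one below counts B box letters again. In the 100 bases before the gene, GTTCGA, part of the B box, was in 33.3% of the 51 genes with a kept region and 4.07% of the 295 without, read on both strands. It had the largest difference of the 2080 merged 6-mers compared. The next were GGCGCA (25.5% against 6.44%), ACCACT (23.5% against 5.08%), CTGCGC (23.5% against 5.08%) and GCGCAC (21.6% against 3.39%), chosen after their values were seen. TATAAA, the core of the TATA box, was in 9.80% and 11.2%, and GAGAGA in 11.8% and 9.15%.

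Box type could be read from the letters for few genes. The rule left 257 of 346 genes (74.3%) unassigned. A kept region was found at 5 of 14 genes read as C/D (35.7%, exact 95% interval 12.8 to 64.9%), at 13 of 75 read as H/ACA (17.3%, 9.57 to 27.8%) and at 33 of the 257 others (12.8%, 9.01 to 17.6%), with overlapping intervals.

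The X chromosome had 1 kept region among 21 candidates at snoRNA genes (4.76%, 0.120 to 23.8%), W01H2.11, which was outside the top of replicate 1. The share was 17.6 to 30.8% on each of the autosomes, a range that the interval for X overlaps. The share kept over all candidates of each chromosome is not given here. Nothing particular to snoRNA genes on X can therefore be read from this count. An annotated ncRNA gene or pseudogene lay under 8 of the 50 kept summits and 8 of the 178 others. At 7 of the 8 kept ones it was an ncRNA gene alone, and at D1046.6 it was an ncRNA gene and a pseudogene.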
